A study of Mus musculus with 3 samples.

Results

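The genes of a pair of signalling routes that hold immune cells back, and of the feedback inhibitors that end cytokine signals, were followed through the immune cells of the mouse brain with and without metastases. The 10 genes were chosen by name, as 10 of 19208 genes in the table of metastasis-bearing brains and 10 of 17453 in the table of naive brains, and all 10 were found in both. Tgfb1 encodes the ligand transforming growth factor beta 1, Tgfbr1 and Tgfbr2 its receptor chains, Smad3 a transcription factor that the receptor activates and Smad7 the inhibitor that blocks the receptor. Il10ra and Il10rb encode the receptor chains for interleukin 10. Socs1, Socs3 and Cish encode inhibitors of the Janus kinases and Stat factors that carry cytokine signals into the nucleus.

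TGF-beta is made in a latent form and must be released before it binds. The type II receptor then pairs with the type I receptor, which activates Smad3, and Smad7 is induced in turn and shuts the receptor off. In the brain this signal keeps microglia, the resident macrophages, in their mature state. Interleukin 10 acts through Stat3 in macrophages and microglia, and Socs3 is a target of Stat3 that damps the interleukin 6 family of signals. Socs1 is induced by interferons and damps them, and Cish is induced by Stat5 in lymphocytes that receive interleukin 2.

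Leukocytes and other cells left after enrichment from the brains of 8 female C57Bl/6 mice, aged 2 to 3 months, were profiled by droplet RNA sequencing, 1 hemisphere each per the labels. The groups were 2 Cx3cr1-/- (homozygous) and 2 Cx3cr1+/- (heterozygous) brains with metastases of the mammary tumour line E0771, given by carotid injection about 2 weeks earlier, and 2 Cx3cr1-/- and 2 Cx3cr1+/- naive brains. Both genotypes thus carry at least 1 lost allele of the fractalkine receptor Cx3cr1, in every cell of the mouse itself, and no wild-type brain was analysed. The genotype is that of the mouse and not of the injected tumour line. Brains were stained with separate hashtag antibodies and pooled into 1 droplet library. After 1138 barcodes that stood in both tables were dropped, 11179 of 13455 cells were used, 8443 of metastasis-bearing and 2736 of naive brains. A brain gave 1354 to 2925 cells with metastases and 337 to 957 cells without. Genotype p-values below measure the spread between brains of 1 pooled library. Those for surface gates measure how gate differences vary from brain to brain, pooled over all gates fitted in a table.

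Cells were grouped by the authors' clusters, which were named here by marker genes. UMIs are barcoded RNA molecules, and corrected UMIs are values adjusted for depth, not counts of molecules. Levels are corrected UMIs summed over the cells of a class in a brain and scaled by their total (CPM). Cx3cr1, the check of the genotype, was at 114 and 31.6 CPM in homozygous and 1363 and 1464 CPM in heterozygous microglia-like cells when metastases were present. In naive brains it was at 75.6 and 71.4 CPM in homozygous and 1953 and 1852 CPM in heterozygous microglia-like cells. Single brains stood apart in marker genes of other cells. Among the metastasis-bearing microglia-like cells, neutrophil markers (8 genes) summed to 1340 CPM in heterozygous brain 1 and to 117 to 145 CPM in the other 3 brains. Among those of naive brains, erythroid markers (4 genes) summed to 679 CPM in heterozygous brain 2 and to 0.809 to 5.35 CPM in the other 3.

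The genes Socs3, Cish and Socs1 carry a match to a binding motif of the factors named above in the 300 bases around their listed start. These short stretches are shown to let the letters of each match be read, and capitals mark it. No binding was measured here. They are from RefSeq, build GRCm38.p6, 5′ to 3′ on the gene's strand.
Socs3, chr11:117969501-117969530, minus strand, TTCNNNGAA at offset -154: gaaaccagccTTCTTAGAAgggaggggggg
Cish, chr9:107296654-107296683, plus strand, TTCNNNGAA from offset 0: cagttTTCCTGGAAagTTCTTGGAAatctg
Socs1, chr16:10785597-10785626, minus strand, GAAANNGAAA at offset -83: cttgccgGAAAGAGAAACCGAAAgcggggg
TTCNNNGAA is the palindrome that Stat dimers bind, and GAAANNGAAA is an interferon-response type of repeat. On both strands, TTCNNNGAA is held by 8.3% and GAAANNGAAA by 3.44% of 32851 mouse promoter windows of the same length. Cish holds 2 separate matches and Socs1 2 overlapping ones. The windows of Tgfb1, Tgfbr1, Tgfbr2 and Smad3 hold neither motif. A match is a description of letters, and these data do not measure binding.

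Microglia-like cells had the highest levels of Tgfbr1, Tgfbr2, Smad3, Smad7, Il10ra and Socs3 among the 6 classes of metastasis-bearing brains that had at least 20 cells in every brain. T-like and NK-like cells had the highest levels of Socs1, and T-like cells of Cish. Tgfb1 and Il10rb were spread over several classes. The classes were cut from RNA clusters that used these genes too, so their levels are given as a description without a test, and neighbours in an order are set apart only where their ranges over the 4 brains did not overlap.

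For the ligand Tgfb1, levels were 322 ± 26.6 CPM (SD, n = 4 brains) in monocyte/macrophage-like cells, 301 ± 19.0 CPM in microglia-like cells and 283 ± 65.4 CPM in NK-like cells. These ranges overlapped. T-like cells were at 170 ± 7.03 CPM, vascular-like cells at 127 ± 10.3 CPM and Krt8-high cells at 78.8 ± 6.38 CPM. Krt8-high cells, a class with keratin and cell cycle genes that no label names, were thus lowest among the 6 classes, and their range lay below that of vascular-like cells.

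Tgfbr1, the type I receptor that carries the kinase acting on Smad3, was at 424 and 349.6 CPM in homozygous and 543 and 513 CPM in heterozygous microglia-like cells of brains with metastases. The next class, monocyte/macrophage-like cells, was at 65.2 and 60.5 CPM in homozygous and 79.0 and 50.9 CPM in heterozygous brains. The mean was 7.16-fold higher in microglia-like cells, and every one of their brains lay above every other class. Vascular-like cells were at 25.8 ± 2.47 CPM, T-like cells at 13.4 ± 2.52 CPM and NK-like cells at 10.1 ± 0.916 CPM (SD, n = 4 each). In Krt8-high cells 18 corrected UMIs were summed over 2732 cells, or 0.528 CPM.

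Tgfbr2, the type II receptor that binds the ligand, had another order. Microglia-like cells were at 218 ± 10.8 CPM and vascular-like cells at 186 ± 14.2 CPM (SD, n = 4 each), with overlapping ranges. T-like cells followed at 79.6 ± 12.95 CPM, monocyte/macrophage-like cells at 44.6 ± 9.07 CPM and NK-like cells at 40.4 ± 10.1 CPM. Vascular-like cells thus had Tgfbr2 near the microglial level with Tgfbr1 far below it. Krt8-high cells had 34 corrected UMIs of Tgfbr2, or 0.997 CPM, while their Tgfb1 level rested on 2835 corrected UMIs.

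Smad7 was at 353 ± 44.3 CPM in microglia-like cells, 198 ± 5.74 CPM in T-like cells and 166 ± 9.17 CPM in NK-like cells of metastasis-bearing brains (SD, n = 4 each). These 3 ranges did not overlap. Vascular-like cells were at 145 ± 21.0 CPM, overlapping NK-like cells. Monocyte/macrophage-like cells, at 47.9 ± 6.31 CPM, stood with Krt8-high cells at 39.4 ± 4.996 CPM at the low end. Smad3 was low throughout, between 8.83 ± 1.13 CPM in monocyte/macrophage-like cells and 27.2 ± 7.51 CPM in microglia-like cells, whose range overlapped that of NK-like cells at 20.8 ± 2.35 CPM.

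Il10ra, the ligand-binding chain of the interleukin 10 receptor, was at 220 ± 28.4 CPM in microglia-like and 118 ± 3.54 CPM in monocyte/macrophage-like cells (SD, n = 4 each), without overlap. NK-like cells were at 51.8 ± 5.86 CPM, T-like cells at 25.3 ± 3.89 CPM and vascular-like cells at 6.18 ± 3.02 CPM. Il10rb, the second chain, which is shared with other receptors of the family, was at 128 ± 14.02 CPM in monocyte/macrophage-like, 110 ± 20.3 CPM in vascular-like and 104 ± 14.8 CPM in microglia-like cells, with overlapping ranges. In Krt8-high cells 10 corrected UMIs of Il10ra and 83 of Il10rb were summed, or 0.293 and 2.43 CPM.

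The 3 feedback inhibitors split by cell type. Socs3 was at 1090 ± 192 CPM in microglia-like cells, above every brain of the other classes, and monocyte/macrophage-like and vascular-like cells followed at 395 ± 65.9 CPM and 328 ± 183 CPM (SD, n = 4 each). Socs1 was at 95.2 ± 11.7 CPM in NK-like and 91.5 ± 8.77 CPM in T-like cells, and at 19.7 ± 8.68 CPM in microglia-like cells. The Socs1 range of monocyte/macrophage-like cells, whose mean was 55.2 CPM, reached those of both lymphocyte classes. Cish was at 81.8 ± 8.05 CPM in T-like cells, and no brain of the other classes reached their lowest brain. NK-like cells were at 26.3 ± 4.07 CPM and microglia-like cells at 11.2 ± 2.91 CPM. In Krt8-high cells 3 corrected UMIs of Cish were summed, or 0.0879 CPM. The classes differed in depth before the correction. Median raw UMIs of a brain ran from 96635 to 116929 in Krt8-high cells and from 3567 to 4422 in NK-like cells. A small corrected sum in Krt8-high cells is thus not a count of the molecules read. What the correction did to low genes there was not tested.

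**Figure D1:**
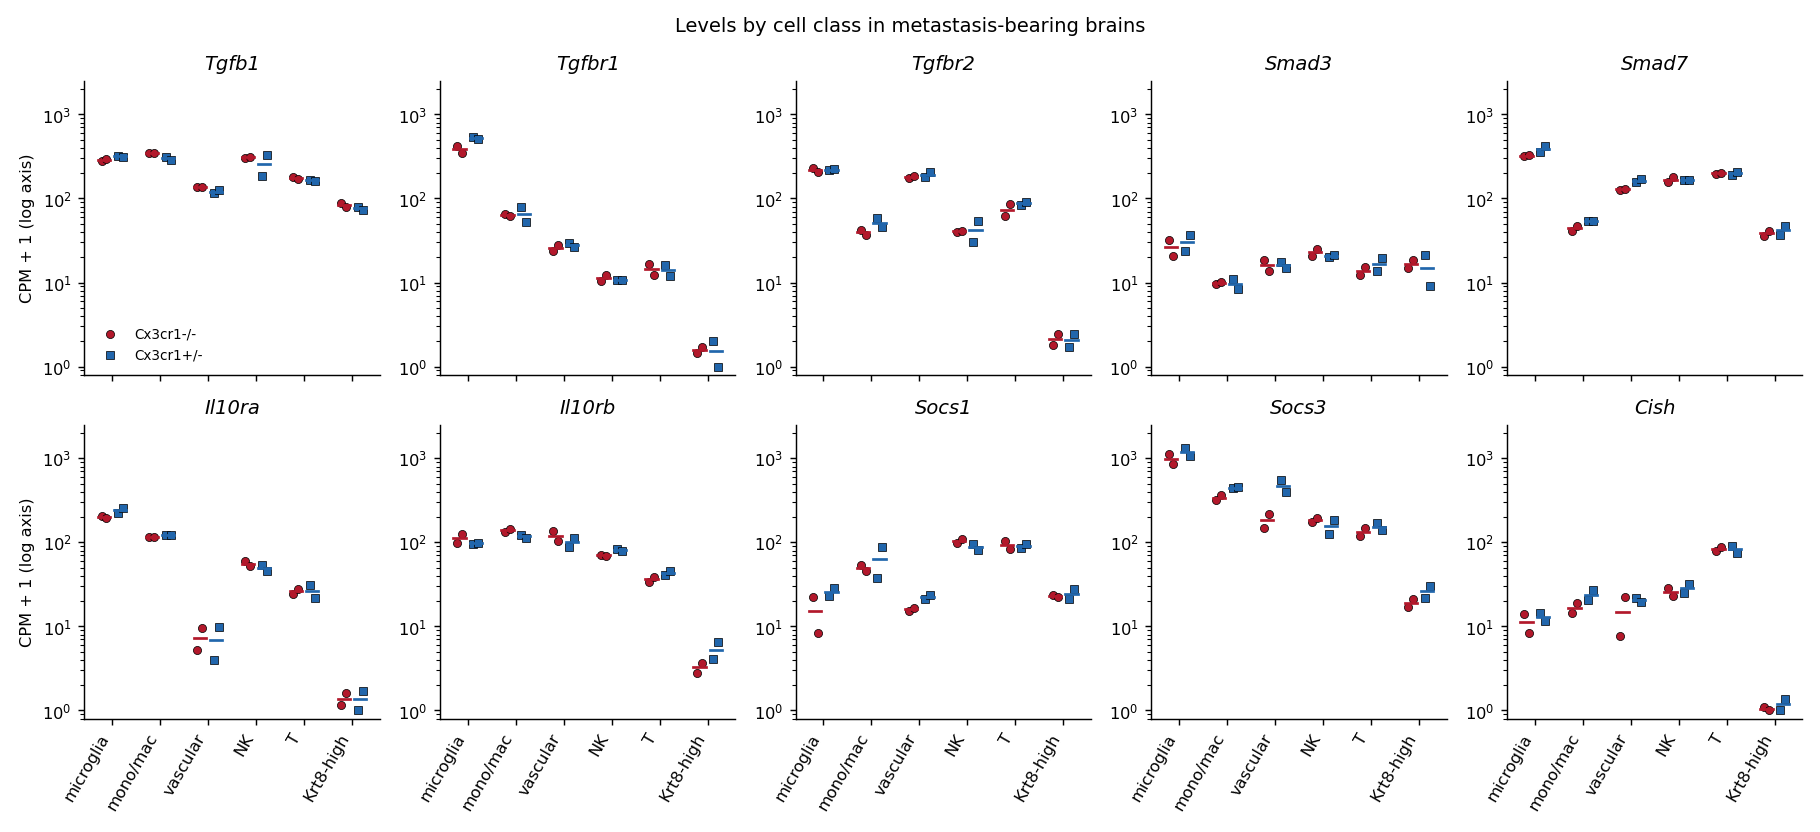
Level of each gene by cell class in metastasis-bearing brains, as CPM + 1 on a log axis; each point is a brain, red circles are homozygous and blue squares heterozygous brains, and lines are means of 2. Microglia-like cells stand highest for Tgfbr1, Smad7, Il10ra and Socs3, T-like cells for Cish, and Krt8-high cells are near 1 (0 CPM) for Tgfbr1, Tgfbr2, Il10ra and Cish.

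Among the named classes of naive brains, microglia-like (1234 cells) and T- and NK-like cells had at least 20 cells in every brain. Tgfbr1 was at 695 ± 18.2 CPM in microglia-like and 60.7 ± 16.2 CPM in T- and NK-like cells (SD, n = 4 each). Socs3 was at 1559 ± 252 CPM in microglia-like and 193 ± 84.2 CPM in T- and NK-like cells. Socs1 and Cish had the opposite order, with 16.5 ± 1.28 and 5.27 ± 3.71 CPM in microglia-like cells and 87.6 ± 21.4 and 75.1 ± 32.0 CPM in T- and NK-like cells. None of these 4 pairs of ranges overlapped.

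The 2 tables were corrected separately, so the microglia-like cells of both states are set side by side without a test. Tgfbr1 was at 457 ± 87.8 CPM in metastasis-bearing and 695 ± 18.2 CPM in naive brains, and Il10ra at 220 ± 28.4 CPM in metastasis-bearing and 304 ± 24.95 CPM in naive brains (SD, n = 4 each). Tgfb1 was at 301 ± 19.0 CPM in metastasis-bearing and 332 ± 12.5 CPM in naive brains. In these 3 genes the 4 metastasis-bearing brains lay below the 4 naive ones. The ranges of the other 7 overlapped, with Socs3 at 1090 ± 192 CPM in metastasis-bearing and 1559 ± 252 CPM in naive brains. On the 1138 barcodes present in both tables the metastasis table gave log2 values of Tgfbr1, Il10ra and Tgfb1 that were 0.15, 0.12 and 0.09 above those of the naive table. The differences between states in microglia-like cells were -0.59, -0.45 and -0.14 on the same log2(CPM + 10) scale.

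The surface gates were taken to be a grouping of cells that rests on antibody tags and not on RNA. Differences between them were therefore tested with limma on log2(CPM + 10), with the brain as a block and p-values adjusted over all genes of the table. The gates are the authors' deposited columns and how they were drawn is not given in the sources used here. In metastasis-bearing brains no gate is named for microglia, and the CD45-low CD11b+ gate stands for them. Of its 983 cells 60.1% were microglia-like, 19.0% lay in a cluster of few UMIs and 12.9% were monocyte/macrophage-like. A gate difference therefore also carries the makeup of each gate. That makeup differed between brains. The CD45-low CD11b+ gate held 155 and 105 cells in homozygous and 487 and 236 in heterozygous brains. The microglia-like class, in or out of this gate, held 85 and 35 cells in homozygous and 390 and 144 in heterozygous brains. The gates of a table were fitted together, so each SE rests on all of them and not only on the pair compared. All comparisons with 1 gate share its 4 values, so their results are not independent of each other.

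Against the Ly6C-high gate (760 cells, 92.4% monocyte/macrophage-like), the microglial gate of metastasis-bearing brains was higher in Smad7, Tgfbr1, Tgfbr2 and Smad3 and lower in Tgfb1, Il10rb and Socs1. These were 4 of 10 members higher and 3 lower, where 34.1% of 7450 genes passed the test in either direction (18.9% higher and 15.3% lower). The members' median was 0.45 and that of all genes 0.08 on the log2 scale.

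Smad7 was at 206 and 163 CPM in the CD45-low CD11b+ gate of homozygous and 327 and 255 CPM in that of heterozygous brains. In the Ly6C-high gate it was at 24.2 and 32.1 CPM in homozygous and 36.3 and 34.9 CPM in heterozygous brains. The gates did not overlap, and the log2 difference was 2.53 ± 0.18 (SE, limma adjusted p = 9.55e-12). Tgfbr1 differed by 2.23 ± 0.29 (limma adjusted p = 4.61e-07) and Tgfbr2 by 1.75 ± 0.19 (limma adjusted p = 2.98e-08). The brains spread within the microglial gate, where Tgfbr1 was at 237 and 143 CPM in homozygous and 470 and 297 CPM in heterozygous brains. Among the microglia-like cells of this gate Tgfbr1 was at 453 and 357 CPM in homozygous and 552 and 542 CPM in heterozygous brains. Smad7 was there at 337 and 302 CPM in homozygous and 356 and 412 CPM in heterozygous brains. The gate differences of Smad7, Tgfbr1 and Tgfbr2 passed under every alternative tried.

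The other 4 calls against the Ly6C-high gate did not. They were 0.65 ± 0.25 for Smad3 (limma adjusted p = 0.0478), -0.45 ± 0.15 for Tgfb1 (0.0224), -0.48 ± 0.18 for Il10rb (0.0403) and -0.78 ± 0.28 for Socs1 (0.0317), with n = 4 brains. For Smad3 the limma adjusted p was 0.132 without homozygous brain 1, 0.0803 without heterozygous brain 1 and 0.254 without heterozygous brain 2. For Tgfb1 it was 0.181 without homozygous brain 1, 0.0642 without homozygous brain 2 and 0.0521 without heterozygous brain 2. For Il10rb it lay between 0.0816 and 0.108 without any 1 of the 4 brains, and for Socs1 it was 0.0922 without homozygous brain 2, 0.0954 without heterozygous brain 1 and 0.0688 without heterozygous brain 2. Socs3, at 0.61 ± 0.27 (limma adjusted p = 0.084), and Il10ra, at 0.29 ± 0.27 (limma adjusted p = 0.436), did not pass. When only cells whose gate and RNA class matched were kept, both passed, at 1.20 ± 0.24 for Socs3 (limma adjusted p = 0.000123) and 0.83 ± 0.21 for Il10ra (limma adjusted p = 0.00151). That setting was chosen after the data were seen and uses clusters cut from these genes. Both also passed among cells of 5000 to 15000 UMIs (limma adjusted p = 0.0283 and 0.0216).

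Against the T cell gates Tgfbr1 had the largest log2 difference of the members. It was 2.64 against the CD4+ T and 3.66 against the CD8+ T gate (limma adjusted p = 9.83e-09 and 8.47e-12). The interleukin 10 receptor and the Socs genes also set the groups apart. In the CD45-low CD11b+ gate Il10ra was at 132 and 110 CPM in homozygous and 187 and 178 CPM in heterozygous brains. Among the microglia-like cells of that gate it was at 213 and 208 CPM in homozygous and 227 and 269 CPM in heterozygous brains. In the CD4+ T gate (297 cells) it was at 26.7 and 55.4 CPM in homozygous and 31.9 and 34.1 CPM in heterozygous brains. No CD4+ T value reached the lowest of the microglial gate, and the log2 difference was 1.79 ± 0.27 (SE, limma adjusted p = 2.02e-06). Against the CD8+ T gate (242 cells) it was 1.18 ± 0.27 (limma adjusted p = 0.000475). Il10rb was also higher than in both gates, by 0.84 ± 0.18 and 0.72 ± 0.18 (limma adjusted p = 0.000392 and 0.0015).

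Socs3 was 1.81 ± 0.27 higher on the log2 scale in the CD45-low CD11b+ gate than in the CD4+ T gate and 2.14 ± 0.27 higher than in the CD8+ T gate (limma adjusted p = 2.38e-06 and 8.74e-08). Socs1 and Cish went the other way. Socs1 was at 30.6 and 19.8 CPM in the CD45-low CD11b+ gate of homozygous and 18.9 and 49.5 CPM in that of heterozygous brains. It was at 132 and 82.0 CPM in the CD4+ T gate of homozygous and 78.3 and 86.3 CPM in that of heterozygous brains. The difference was -1.44 ± 0.28 against the CD4+ T gate (limma adjusted p = 0.00012) and -1.52 ± 0.28 against the CD8+ T gate (limma adjusted p = 4.45e-05). For Cish the differences were -2.35 ± 0.23 and -1.33 ± 0.23 (limma adjusted p = 8.28e-10 and 1.35e-05).

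Of 10 members 6 were called higher and 2 lower in the microglial gate against each of the CD4+ T and CD8+ T gates. The share of all 7450 genes that passed was 38.8% against CD4+ T cells and 45.3% against CD8+ T cells. Smad3 and Smad7 did not pass in either, with Smad7 at 0.23 ± 0.18 (limma adjusted p = 0.323) and 0.18 ± 0.18 (limma adjusted p = 0.439). Among cells whose gate and class matched, Smad7 passed in both, at 0.75 ± 0.22 (limma adjusted p = 0.00496) and 0.73 ± 0.22 (limma adjusted p = 0.00631). The calls of Tgfb1 and Tgfbr2 against CD4+ T cells were lost without single brains. Tgfb1, at 0.39 ± 0.15 (limma adjusted p = 0.0454), had an adjusted p of 0.0667 without homozygous brain 1, 0.155 without heterozygous brain 1 and 0.254 without heterozygous brain 2. Tgfbr2, at 0.62 ± 0.19 (limma adjusted p = 0.0101), had one of 0.109 without homozygous brain 1 and 0.0521 without heterozygous brain 1.

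The other gates of metastasis-bearing brains gave 4 to 6 members higher and 0 to 2 lower in the microglial gate. Against CD45-high CD11b- cells 6 were higher and 1 lower (37.2% of all genes called), against CD45-low CD11b- cells 6 and 0 (31.6%), against other T cells 6 and 2 (38.7%), against Ly6C-low cells 4 and 1 (22.0%) and against Ly6C+ Ly6G+ cells 4 and 1 (45%). Smad7 was higher than in Ly6C+ Ly6G+ cells by 2.17 ± 0.18 (limma adjusted p = 1.19e-10). Il10ra was higher than in the CD45-low CD11b- gate, of whose cells 47.2% were vascular-like, by 3.01 ± 0.27 (limma adjusted p = 1.47e-10). Tgfbr1 was the one member called higher in the microglial gate in all 11 comparisons of both states, by 1.60 ± 0.28 against naive Ly6C-low cells to 3.66 ± 0.29 against CD8+ T cells, and no alternative run took a call from it there. In naive brains 7 members were higher and 1 lower than in CD45-low CD11b- cells (45.3% of all genes called), and 5 and 2 than in Ly6C-low cells (24.9%).

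**Figure D2:**
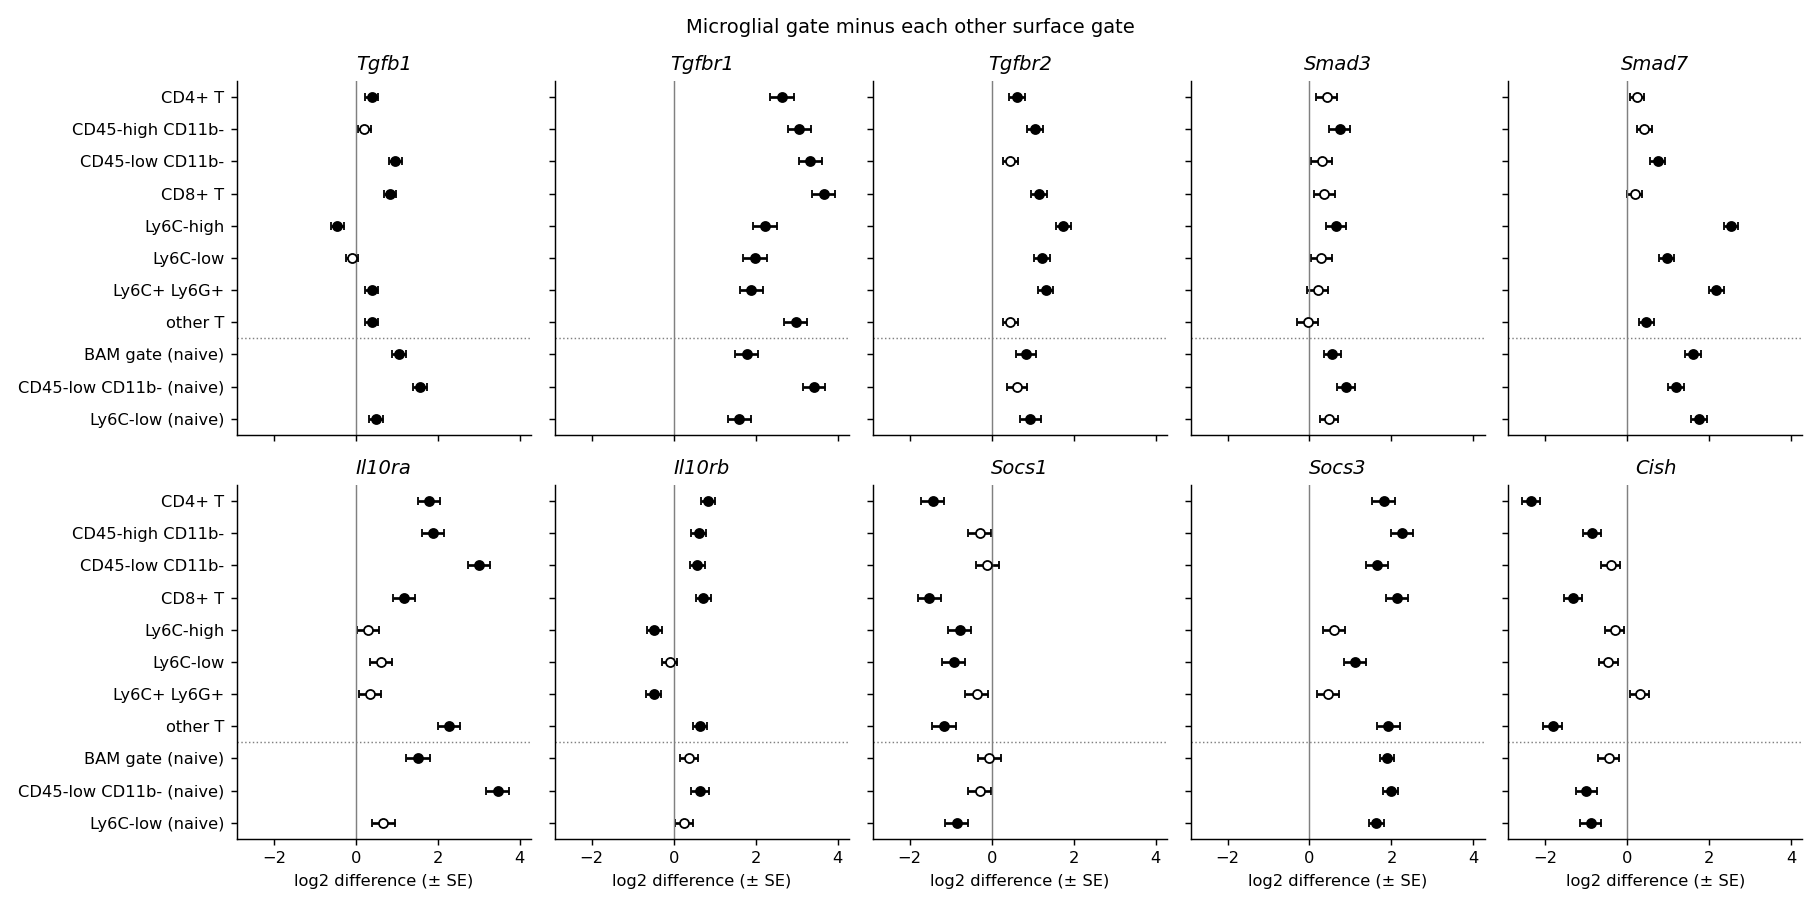
Log2 difference of CPM + 10 between the microglial gate and each other surface gate, with its SE, for each gene; the rows above the dotted line are metastasis-bearing brains (CD45-low CD11b+ gate) and those below it naive brains (microglia gate), and filled points passed the limma test. Tgfbr1 is above 0 in all 11 comparisons, while Socs1 and Cish are below 0 against the T cell gates.

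Within the T cells of metastasis-bearing brains, Cish was at 29.2 and 66.4 CPM in the CD8+ T gate of homozygous and 28.4 and 59.4 CPM in that of heterozygous brains. In the CD4+ T gate it was at 101 and 133 CPM in homozygous and 109 and 62.6 CPM in heterozygous brains. The difference, CD8+ minus CD4+, was -1.02 ± 0.23 (SE, limma adjusted p = 0.00491), and every brain was lower in its CD8+ T cells, by a small step in heterozygous brain 2. Without homozygous brain 1 the limma adjusted p was 0.0927. Tgfbr1 was lower in CD8+ T cells too, with a difference of -1.02 ± 0.29 (limma adjusted p = 0.0286), with an adjusted p of 0.0621 without homozygous brain 1, 0.134 without homozygous brain 2 and 0.129 without heterozygous brain 2. Microglial markers (10 genes) summed to 189 to 820 CPM in the CD8+ T gate and 503 to 812 CPM in the CD4+ T gate, and their part in the Tgfbr1 difference was not tested.

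These were 2 of 10 members lower and 0 higher, where 6.86% of 7450 genes were called, 5.14% lower and 1.72% higher. With another scaling (median ratios) the share of higher calls among all genes was 44.2%, against 25% in the main fit. At an unadjusted p under 0.05, which 22.1% of genes passed, limma found 5 members between the T cell gates. Beside Cish and Tgfbr1, Il10ra had a difference of 0.60 ± 0.27 (limma adjusted p = 0.175), and Tgfb1 and Tgfbr2 had -0.45 ± 0.15 (limma adjusted p = 0.0762) and -0.55 ± 0.19 (limma adjusted p = 0.0801), and none of the 3 passed.

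Of the other genes of these routes, each list had 0 called higher in the CD8+ T gate. Called lower were 1 of 7 genes of TGF-beta ligands and activation, 0 of 3 further TGF-beta superfamily receptors, 1 of 13 Smads and their regulators and 1 of 9 TGF-beta target genes. The interleukin 10 response list had 2 of 10 lower, the other Socs genes 1 of 3, the Janus kinases and Stat factors 1 of 11 and the receptors that Socs proteins and Cish damp 3 of 16, where 5.14% of all genes were called lower and 1.72% higher. The transcript of interleukin 10 itself was at 0.0 and 4.28 CPM in the CD8+ T gate of homozygous and 0.0 and 0.0 CPM in that of heterozygous brains, and at 44.2 and 71.0 CPM in the CD4+ T gate of homozygous and 27.2 and 15.3 CPM in that of heterozygous brains. Il10 differed by -2.04 ± 0.38 on the log2 scale with 10 CPM added (limma adjusted p = 0.000695). Il2ra, the high-affinity chain of the interleukin 2 receptor, differed by -2.17 ± 0.39 (limma adjusted p = 0.000454), and Socs2, a further Socs gene, by -1.64 ± 0.35 (limma adjusted p = 0.00336). Itgae, a TGF-beta target of tissue-resident T cells, had a difference of -1.20 ± 0.34 (limma adjusted p = 0.0267). Markers of regulatory T cells (4 genes, Il2ra among them) summed to 349 and 268 CPM in the CD8+ T gate of homozygous and 175 and 396 CPM in that of heterozygous brains, and to 1480 and 1856 CPM in the CD4+ T gate of homozygous and 1211 and 754 CPM in that of heterozygous brains. Their part in these differences was not tested.

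The Ly6C-high and Ly6C-low gates differed from each other in 1 member. Smad7 was 24.2 and 32.1 CPM in the Ly6C-high gate of homozygous and 36.3 and 34.9 CPM in that of heterozygous brains, and in the Ly6C-low gate 96.3 and 112 CPM in homozygous and 130 and 119.9 CPM in heterozygous brains. The gates did not overlap, and the difference was -1.58 ± 0.18 (SE, limma adjusted p = 1.73e-07). Of the 1311 cells in the Ly6C-low gate 45.3% were monocyte/macrophage-like and 42.5% NK-like, a class with 166 CPM of Smad7. Among monocyte/macrophage-like cells of both gates alone it was -0.73 ± 0.20 (limma adjusted p = 0.0744). This pair of gates was added after the data were seen. Over all genes, 17.7% were called, 11.1% lower and 6.59% higher in the Ly6C-high gate, and with median-ratio scaling 54.2% of all calls were higher, against 37.3% in the main fit.

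Il10 was also higher in the Ly6C-high gate, where it was at 31.9 and 42.3 CPM in homozygous and 23.3 and 10.2 CPM in heterozygous brains. In the Ly6C-low gate it was at 10.5 and 11.99 CPM in homozygous and 0.610 and 5.49 CPM in heterozygous brains. The difference was 1.08 ± 0.38 (SE, limma adjusted p = 0.0442). Of the 10 genes listed as an interleukin 10 response in macrophages 4 were called higher and 0 lower in the Ly6C-high gate, with Il1rn at 1.79 ± 0.43, Arg1 at 1.53 ± 0.54, Nfil3 at 0.90 ± 0.28 and Dusp1 at 0.64 ± 0.19 (limma adjusted p between 0.00333 and 0.0451). The median of the list was 0.67 and that of all genes -0.07 on the log2 scale. Among monocyte/macrophage-like cells of both gates alone, which leaves out the NK-like cells of the Ly6C-low gate, these calls were lost. Il10 then differed by 0.79 ± 0.26 (SE, limma adjusted p = 0.106), and 0 of the 10 response genes were called in either direction, with a median of 0.29 against -0.05 for all genes, of which 1.23% were called higher. The ligand was near the floor in microglia-like cells, at 0.938 and 0.0 CPM in homozygous and 0.660 and 0.0 CPM in heterozygous metastasis-bearing brains.

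**Figure D3:**
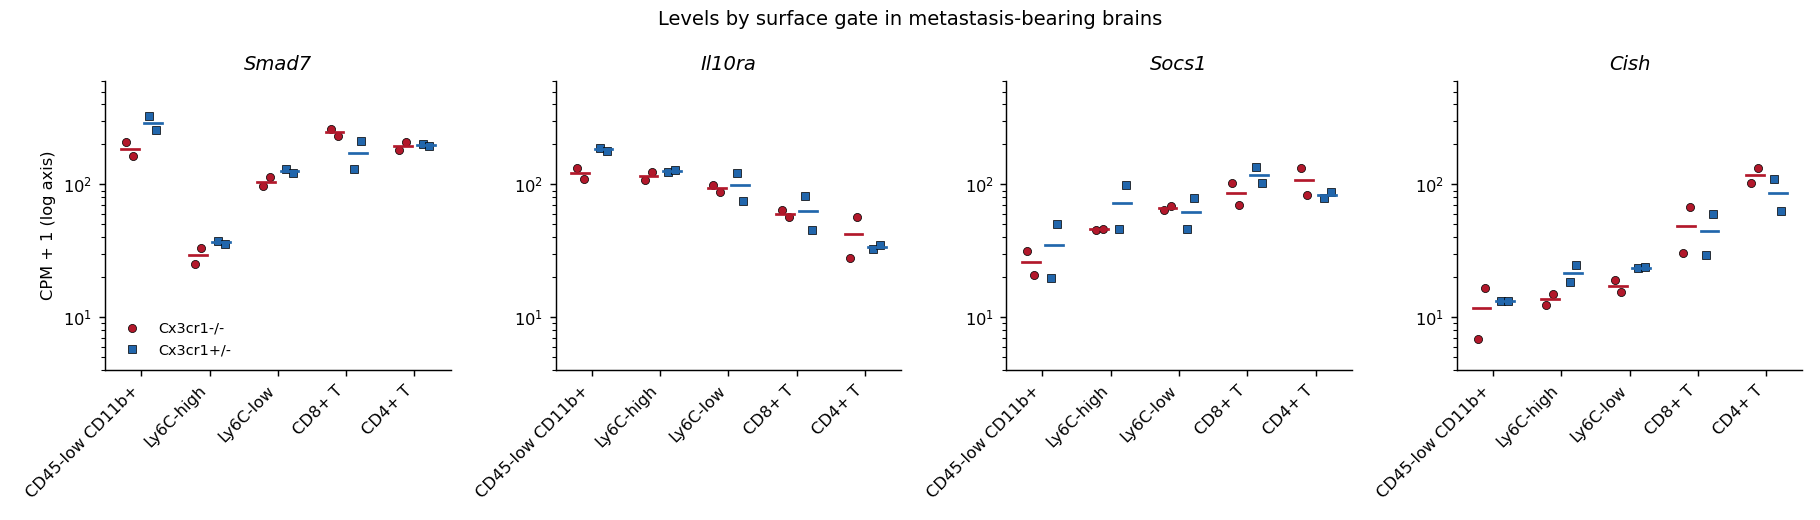
Smad7, Il10ra, Socs1 and Cish in each metastasis-bearing brain by surface gate, as CPM + 1 on a log axis; red circles are homozygous and blue squares heterozygous brains, and lines are means of 2. Of the gates shown, Smad7 is lowest in the Ly6C-high gate (24.2 to 36.3 CPM), and the mean of Cish is highest in the CD4+ T gate.

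In naive brains the microglia gate (1694 cells, 69.6% microglia-like) was compared with a gate named BAM (166 cells). That gate held 30.1% Krt8-high, 24.7% unnamed antigen-presenting, 15.1% microglia-like and 14.5% vascular-like cells, so it is called here by its name only. Naive Krt8-high cells, as few as 11 in a brain, had means of 40.9 CPM of Socs3, 4.17 of Tgfbr1, 36.6 of Smad7, 2.86 of Il10ra and 112 of Tgfb1. The part of this makeup in the differences below was not tested. No fit of cells whose gate and class matched included the BAM gate. Of 10 members 7 were higher in the microglia gate and 0 lower, where 17.3% of 8947 genes were called higher and 25.2% lower. The largest differences were 1.89 ± 0.18 for Socs3 (limma adjusted p = 1.62e-06), 1.78 ± 0.28 for Tgfbr1 (limma adjusted p = 0.000121), 1.61 ± 0.19 for Smad7 (limma adjusted p = 1.35e-05), 1.51 ± 0.29 for Il10ra (limma adjusted p = 0.00054) and 1.05 ± 0.17 for Tgfb1 (limma adjusted p = 0.000177). Tgfbr2 and Smad3 were called as well, and their calls were lost without single brains (limma adjusted p = 0.0942 without homozygous brain 2 and 0.117 without heterozygous brain 1 for Tgfbr2, and 0.0527 to 0.214 without any 1 of the 4 brains for Smad3).

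Among the 17 Smads and their regulators tested, 8 were higher in the naive microglia gate than in the BAM gate and 1 lower, with a median of 0.55 against -0.07 for all genes. Ski and Skil, which repress Smad targets, were higher by 1.56 ± 0.18 and 1.72 ± 0.23 (limma adjusted p = 7.59e-06 and 4.11e-05), and Smad6, the inhibitor on the bone morphogenetic protein side, had a difference of -1.43 ± 0.31 (limma adjusted p = 0.00164). The same list had 5 of 13 higher and 1 lower in the microglial gate against the Ly6C-high gate of metastasis-bearing brains, with a median of 0.20 against 0.08 for all genes. Pmepa1, a TGF-beta induced inhibitor of the route, led it at 2.85 ± 0.30 (limma adjusted p = 1.63e-08). The other TGF-beta lists had more lower than higher calls against the BAM gate. Of 8 target genes 1 was higher and 5 lower (median -1.12). Of 14 ligand and activation genes 2 were higher and 4 lower (-0.667), and of 8 further receptors 1 and 3 (0.135). Against the Ly6C-high gate the calls were 1 and 2 of 9 targets (median 0.0928), 2 and 2 of 7 ligand and activation genes (0.57) and 1 and 0 of 3 receptors (0.602).

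The interleukin 10 response list had 7 of 9 genes higher and 0 lower in the naive microglia gate against the BAM gate, led by Sbno2 at 1.82 ± 0.20 and Zfp36 at 1.19 ± 0.22 (limma adjusted p = 6.93e-06 and 0.000392). The list's median was 0.83 against -0.07 for all genes, of which 17.3% were called higher and 25.2% lower. Against the Ly6C-high gate of metastasis-bearing brains 0 of 10 were higher and 4 lower in the microglial gate, with a median of -0.46 against 0.08 for all genes, of which 18.9% were called higher and 15.3% lower. Among the Janus kinases and Stat factors, 2 of 10 were higher and 0 lower than in the naive BAM gate (median 0.39), and 1 of 11 was higher and 3 lower than in the Ly6C-high gate (median -0.27). Jak2 was lower there at -1.12 ± 0.28 and Stat2 at -0.95 ± 0.24 (limma adjusted p = 0.00211 and 0.00278). Stat3, which both Il10ra and the interleukin 6 receptors use, was higher by 1.56 ± 0.23 and 0.39 ± 0.14 in these 2 comparisons (limma adjusted p = 8.73e-05 and 0.0281). These gates differ between the states, so the comparisons are given side by side.

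Genotype, homozygous minus heterozygous, was tested in 6 classes of the brains with metastases and in naive microglia-like cells, with 2 brains in each group. With metastases, Krt8-high cells numbered 1629 and 655 in homozygous and 231 and 217 in heterozygous brains. Microglia-like cells numbered 85 and 35 in homozygous and 390 and 144 in heterozygous brains. The part of these cell numbers in the results was not tested. The only member called in the main fits was Socs3 in naive microglia-like cells. It was at 1379 and 1308 CPM in homozygous and 1737 and 1812 CPM in heterozygous brains. Both homozygous brains lay below both heterozygous ones, and the log2 difference was -0.40 ± 0.07 (SE, limma adjusted p = 0.00342). This was 1 of 9 members tested, where 0.572% of 7693 genes were called, 0.403% higher and 0.169% lower. The call was lost in 5 alternatives, among them the antibody gate, at -0.40 ± 0.06 (limma adjusted p = 0.0857), cells of 5000 to 15000 UMIs, at -0.34 ± 0.07 (0.0505), a fit without a trend of the spread (0.558), and the fits without homozygous brain 1 (0.0592) or 2 (0.134), and the direction was kept in all.

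The values beside it in the same cells were as follows. Microglial markers summed to 18990 and 19280 CPM in homozygous and 21600 and 20220 CPM in heterozygous brains, and median raw UMIs were 7310 and 7522 in homozygous and 6884 and 7366 in heterozygous brains. Their part in the Socs3 difference was not tested. Without heterozygous brain 2, which held the erythroid markers, the Socs3 call was kept. The differences of the other 8 tested members ran from -0.08 ± 0.09 for Tgfbr2 to 0.10 ± 0.09 for Il10ra.

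In metastasis-bearing brains, microglia-like cells had 0 of 10 members called, where 0.0814% of 7374 genes were. At an unadjusted p under 0.05, which 8.61% of genes passed, limma found 1 member, Tgfbr1, at -0.44 ± 0.14 (limma adjusted p = 0.477), with homozygous brains at 424 and 349.6 CPM and heterozygous brains at 543 and 513 CPM. In 9 of the 10 members the main fit had a negative difference, with a median of -0.20 against 0.01 for all genes. In 5 of them (Tgfb1, Tgfbr1, Smad7, Il10ra and Socs1) both homozygous brains lay below both heterozygous ones and in 0 above, where 19.0% of all genes lay below and 21.6% above. Socs3 was at 1128 and 852 CPM in homozygous and 1317 and 1063 CPM in heterozygous brains, which overlapped, and its difference was -0.27 ± 0.17 (limma adjusted p = 0.679). Homozygous brain 2 gave only 35 of the 654 microglia-like cells, and markers of monocytes and macrophages (10 genes) summed to 804 and 852 CPM in homozygous and 449 and 609 CPM in heterozygous brains. Their part was not tested.

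The difference between the genotype effects of the 2 states, metastasis-bearing minus naive, was called for 0 of 9 members (0.0142% of 7065 genes). Tgfbr1 had -0.50 ± 0.15 (limma adjusted p = 0.485) and Il10ra -0.37 ± 0.17 (limma adjusted p = 0.577), the 2 members with an unadjusted p under 0.05, which 8.44% of genes passed. Without metastasis-bearing homozygous brain 1 the values were -0.64 ± 0.13 for Tgfbr1 and -1.04 ± 0.26 for Socs1. That fit leaves only homozygous brain 2 in its group, with 35 microglia-like cells and the lowest Socs1 level, 7.28 CPM. The Socs3 effects of the states differed by 0.13 ± 0.19 (limma adjusted p = 0.892).

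**Figure D4:**
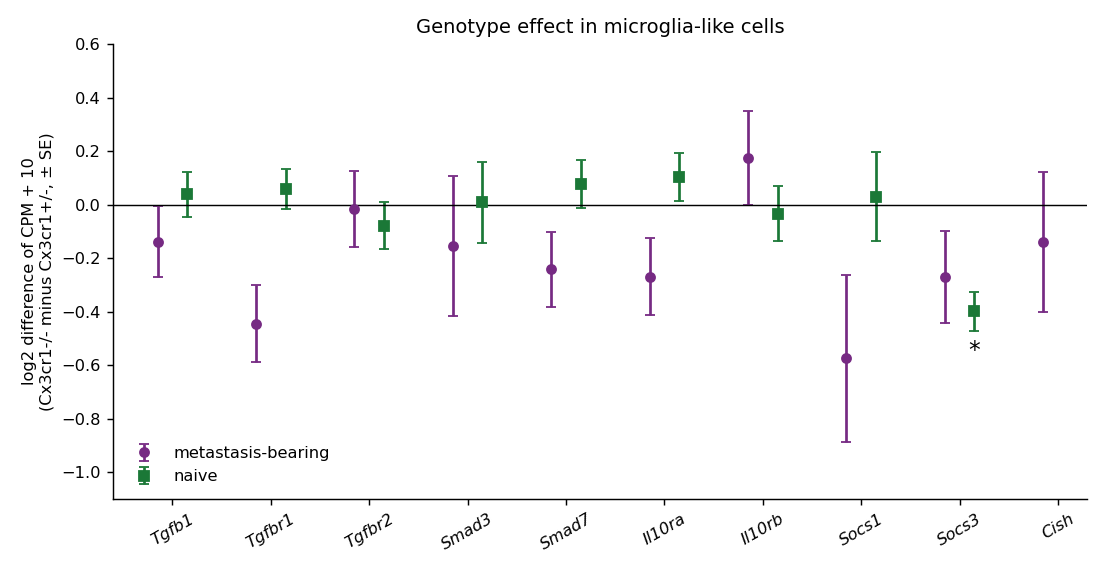
Log2 difference of CPM + 10 between homozygous and heterozygous microglia-like cells, with its SE, in metastasis-bearing (circles) and naive (squares) brains, 2 against 2 brains each; Cish was too low to be tested in naive brains. The asterisk marks Socs3 in naive brains (-0.40 ± 0.07), the one value past the threshold.

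In the other classes 0 members were called in the main fits. The shares of all genes called were 0.0143% in monocyte/macrophage-like cells, 0.0476% in NK-like cells, 0.025% in Krt8-high cells and 0.0% in T-like and vascular-like cells. Socs3 had the smallest p of the members in 4 of these 5 classes, the exception being T-like cells. In vascular-like cells it was at 148 and 217 CPM in homozygous and 553 and 395 CPM in heterozygous brains. The difference of -1.34 ± 0.23 missed the threshold (limma adjusted p = 0.211). Without homozygous brain 2, which leaves 1 homozygous brain, the difference was -1.60 ± 0.22. In vascular-like cells of naive brains, which had as few as 17 cells in a brain and were not tested, the genotypes overlapped, with 615 and 434 CPM in homozygous and 404 and 601 CPM in heterozygous brains.

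Several measures moved with the vascular Socs3 values. Mural and stromal markers (8 genes) summed to 3021 and 3301 CPM in homozygous and 4669 and 4324 CPM in heterozygous metastasis-bearing brains, while endothelial markers (7 genes) overlapped at 12540 and 8739 CPM in homozygous and 8429 and 10290 CPM in heterozygous brains. Microglial markers summed to 3113 and 2506 CPM in homozygous and 1568 and 1662 CPM in heterozygous brains. Median raw UMIs were 10982 and 12320 in homozygous and 7767 and 7749 in heterozygous brains. Their part in the result was not tested. Zfp36, an early-response gene of the interleukin 10 list, had -0.82 ± 0.15 in the same cells (limma adjusted p = 0.211).

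In monocyte/macrophage-like cells Socs3 was at 315 and 367 CPM in homozygous and 448 and 451 CPM in heterozygous brains, a difference of -0.39 ± 0.12 (limma adjusted p = 0.417). Without overlap, 5 members lay lower in homozygous cells (Tgfbr2, Smad7, Il10ra, Socs3 and Cish) and 2 higher (Tgfb1 and Il10rb), where 15.2% of all genes lay lower and 21.4% higher. T-like cells gave differences from -0.23 ± 0.16 for Tgfbr2 to 0.08 ± 0.11 for Tgfb1. NK-like cells gave differences from -0.19 ± 0.17 for Il10rb to 0.30 ± 0.21 for Tgfb1. Krt8-high cells were tested in 5 members, and Socs3, at -0.31 ± 0.16 (limma adjusted p = 0.789), had the smallest p. Socs3 was thus negative in 6 of the 7 genotype comparisons and positive in NK-like cells, at 0.26 ± 0.18 (limma adjusted p = 0.927). Without heterozygous brain 2, NK-like cells gave 0.53 ± 0.14 for Socs3 and 0.70 ± 0.11 for Tgfb1. That fit leaves only heterozygous brain 1 in its group, with 37 NK-like cells and the lowest Tgfb1 level of the class, 186 CPM. The classes come from the same brains and are not independent.

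**Figure D5:**
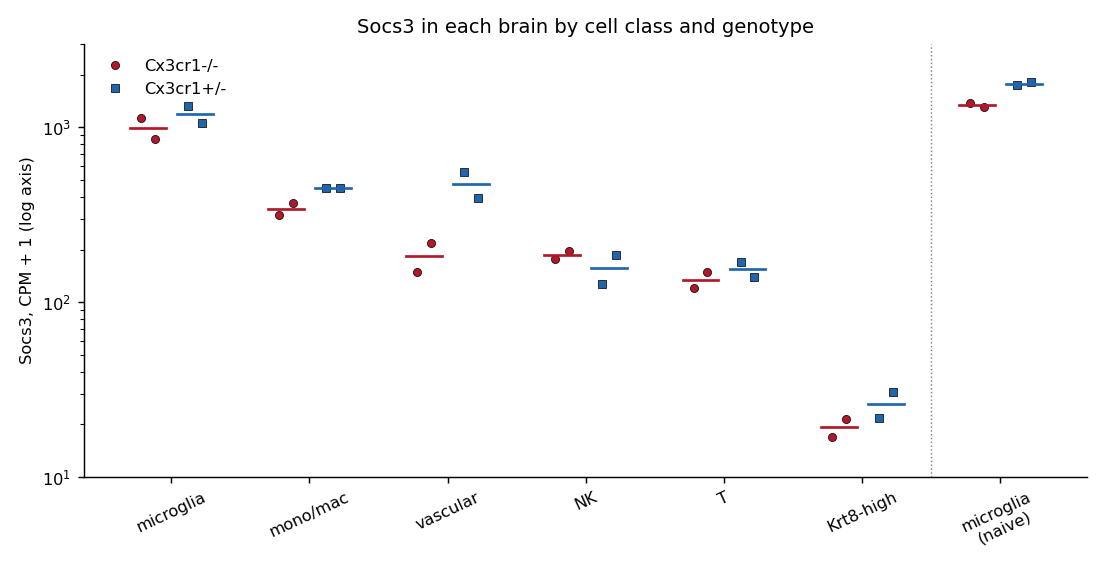
Socs3 in each brain by cell class, as CPM + 1 on a log axis; red circles are homozygous and blue squares heterozygous brains, lines are means of 2, and the column right of the dotted line is naive brains. Homozygous brains lie below heterozygous ones in naive microglia-like (1379 and 1308 against 1737 and 1812 CPM) and in monocyte/macrophage-like, vascular-like and Krt8-high cells of metastasis-bearing brains, and the genotypes overlap in microglia-like, T-like and NK-like cells there.

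The genes whose levels ran most alike across the 9 metastasis-table clusters of at least 50 cells describe these patterns further, as correlations of log2(CPM + 10) over clusters that share 1 library and its depth. Socs3 ran with the immediate-early and early-response genes Fos, Zfp36 and Egr1 (Pearson r = 0.964, 0.959 and 0.954), and over the 8 naive clusters r was 0.956, 0.936 and 0.923. Tgfbr1 ran with Cst3, Cyfip1 and Siglech, a microglial lectin gene (r = 0.989, 0.985 and 0.972), and over the naive clusters r was 0.739, 0.955 and 0.996. Il10ra ran with the haematopoietic genes Nckap1l, Pik3cg and Cyth4 (r = 0.971, 0.954 and 0.95, and 0.995, 0.964 and 0.952 over the naive clusters). Socs1 ran with the lymphocyte genes Cd7 and Sla2 and with Zfp53 (r = 0.968, 0.959 and 0.944), and over the naive clusters Cd7 and Sla2 had r = 0.71 and 0.756. Tgfb1 ran with Irf8, a factor of myeloid cells, and Tpm3 (r = 0.968 and 0.935, and 0.746 and 0.865 over the naive clusters). Tgfbr2 ran with Fli1, a factor of endothelial and blood cells, Wasf2 and Tmem59 (r = 0.959, 0.958 and 0.95). Over the naive clusters these were 0.99, 0.967 and 0.962. Smad7 ran with Zdhhc20, Ldb1 and Cdk13 (r = 0.951, 0.946 and 0.943), and Smad3 with Ss18, Spast and Crot (r = 0.913, 0.887 and 0.879). Over the naive clusters r was 0.959, 0.96 and 0.799 for Smad7 and 0.779, 0.828 and 0.795 for Smad3. Il10rb ran with Cggbp1, Rnf130 and Tspan13 (r = 0.988, 0.946 and 0.943), and Cish with Hdhd5, Tap2 and Gbp8 (r = 0.934, 0.929 and 0.927). Over the naive clusters r was 0.949, 0.937 and 0.876 for Il10rb and 0.831, 0.583 and 0.884 for Cish.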

How the data were processed

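Droplet RNA libraries of the hashtagged pool were processed with Cell Ranger 3.1 and Seurat 3.1.1 on mm10, per the submitters' processing notes. The authors deposited natural log values, ln(1 + corrected UMI), for each state. Values of the shared barcodes differed between the tables, so each table was taken as corrected on its own. The exponential minus 1 was whole (tolerance 1e-06) in 100% of nonzero values. Raw UMI counts per cell, clusters, hashtags and gates came from the deposited metadata. All cells carried the authors' singlet label and no doublet caller was run. The 1138 barcodes in both tables were dropped.

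Corrected UMIs were summed per class or gate and brain, scaled to CPM and tested as log2(CPM + 10) with limma 3.58.1 (R 4.3.3, trended eBayes) over genes with a mean above 10 CPM, calling a gene at a Benjamini-Hochberg adjusted p under 0.05. Differences on this scale understate changes of low genes. Classes and gates needed 20 cells in every brain. In naive brains 30 cells in more than 1 gate were left out. With 2 brains per genotype an exact permutation test of 2 against 2 cannot go below 0.333. The steps were tested on simulated data. Python 3.11.15, numpy 2.4.6, pandas 2.3.3, scipy 1.17.1 and matplotlib 3.10.9 were used.

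The genes and lists were chosen with earlier results of these data known. The rule for named genes took, besides the 10 members, Cx3cr1, the 3 genes most alike to each member, and from each list of other pathway genes those past the threshold or, where none passed, the 2 with the smallest p. Of these pathway genes the text gives examples, picked with their values in view. The CD45-low CD11b+ gate as the microglial gate, the pair of Ly6C gates and the setting that combines gate and class were chosen after seeing the data. Sequences were matched by symbol for 7 of the 10 members. Some genes that the rule for named genes took are not reported here.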

Additional observations from a re-analysis of the deposited data

Results flagged for a closer look

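In 12 of 210 groups of 4 brains (5.71%) 1 brain lay far from the other 3, measured as the gap to its nearest neighbour over the whole range, where chance gives about 1 in 20 groups. Of these, 4 were in the naive BAM gate, with heterozygous brain 1 at 112 CPM of Tgfbr1 against 201 to 219 CPM in the others, and heterozygous brain 2 at 221 CPM of Tgfbr2 (73.4 to 93.2 in the others), 133 CPM of Il10ra (65.8 to 73.4) and 17.7 CPM of Cish (10.2 to 11.3). In the naive microglia gate Tgfbr1 was at 616 CPM in heterozygous brain 1 and at 645 to 648 CPM in the others. In naive T- and NK-like cells Cish was at 123 CPM in homozygous brain 1 and at 53.4 to 62.3 CPM in the others.

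In metastasis-bearing brains Il10rb was at 126 CPM in microglia-like cells of homozygous brain 2 (95.3 to 98.6 in the others) and Smad3 at 24.3 CPM in NK-like cells of the same brain (19.3 to 19.99). In homozygous brain 1 Socs1 was at 132 CPM in the CD4+ T gate (78.3 to 86.3) and Il10rb at 82.2 CPM in the CD45-high CD11b- gate (47.9 to 53.5). Socs3 was at 426 CPM in the Ly6C-low gate of heterozygous brain 1 (274 to 289 in the others), and Socs1 at 97.8 CPM in the Ly6C-high gate of heterozygous brain 2 (44.7 to 45.4).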

How the results depend on the processing

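Member values in the gates were recomputed in 1640 alternatives: 1482 kept their side of the threshold, 113 lost the call and 45 gained it. Of the 1640, 28 changed sign. Of 79 member calls in the gates 52 held under all alternatives run. In the genotype and state comparisons 814 of 827 alternatives kept their side of the threshold, 8 gained a call and 79 changed sign, and the single call, Socs3 in naive microglia-like cells, was lost in 5. None of these sign changes was past the threshold on either side. No paired analysis was possible because the labels give the brains of the 2 genotypes no shared numbers. Leaving out 1 brain leaves 1 brain in an arm, which is then assumed to vary like the others. For values that changed, the cause was not tested.

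Counts of all genes called for genotype varied more. In metastasis-bearing microglia-like cells (6 called) they were 1 with no filter, 1 with no trend, 2 with all deposited cells, 0 with cells of 5000 to 15000 UMIs, 12 with the mean of ln values and 0 in the antibody gate. In naive microglia-like cells (44 called) they were 25 with no filter, 2 with no trend, 23 with all deposited cells, 25 with cells of 5000 to 15000 UMIs and 7 in the antibody gate, and median-ratio scaling gave 16 higher and 15 lower in place of 31 and 13. In monocyte/macrophage-like cells (1 called) they were 0 with no trend, median-ratio scaling, all deposited cells or the UMI range, and 6 with the mean of ln values. In NK-like cells (3 called) they were 0 with no trend, 11 with all deposited cells and 1 with the mean of ln values. In Krt8-high cells (2 called) they were 0 with no filter, 1 with all deposited cells and 0 with the mean of ln values. T-like cells (0 called, 297 at an unadjusted limma p under 0.05) had 3 with the mean of ln values, and vascular-like cells (0 called, 918 unadjusted) 2 with the UMI range. The interaction (1 called) had 0 with pseudocount 1, no filter, no trend, the UMI range, the mean of ln values or the antibody gate. Without single brains the counts ran from 12 to 2024 in Krt8-high, 36 to 88 in metastasis-bearing and 24 to 56 in naive microglia-like, 0 to 230 in monocyte/macrophage-like, 3 to 920 in NK-like, 0 to 240 in T-like and 0 to 169 in vascular-like cells, and 0 to 313 for the interaction.

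For the gates, the CD45-low CD11b+ gate minus CD45-low CD11b- (2351 called) had 5307 with no filter and 3664 with gate and class together. With gate and class together the count was 2716 against Ly6C-low (1636 called) and 5038 against Ly6C+ Ly6G+ (3356 called). With the UMI range it was 869 for CD8+ minus CD4+ T (511 called) and 503 for Ly6C-high minus Ly6C-low (1318 called), where gate and class together gave 194. With all deposited cells it was 6418 against the naive BAM gate (3800 called) and 3609 against the naive Ly6C-low gate (2224 called). Without single brains the counts against each gate ran from 2100 to 2701 (CD4+ T), 2102 to 2612 (CD45-high CD11b-), 1704 to 2189 (CD45-low CD11b-), 2687 to 3171 (CD8+ T), 1780 to 2329 (Ly6C-high), 997 to 1406 (Ly6C-low), 2490 to 3109 (Ly6C+ Ly6G+) and 2151 to 2817 (other T). They ran from 198 to 400 for CD8+ minus CD4+ T, 528 to 1494 for Ly6C-high minus Ly6C-low, and 2465 to 3690 (BAM), 3055 to 3771 (CD45-low CD11b-) and 1209 to 2541 (Ly6C-low) in naive brains. Against Ly6C+ Ly6G+ cells 73.4% of calls were higher, and 55.2% with median-ratio scaling, which moved the median of all genes by -0.16.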
